A study of Caenorhabditis elegans with 2 samples.

Results

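The 9 genes elt-1, elt-3, egl-18, elt-6, rnt-1, bro-1, lin-26, blmp-1 and grh-1, which encode regulators of the Caenorhabditis elegans epidermis and its seam cells, were examined for ChIP-seq summits of the zinc-finger factor SEM-4. They were taken as a named list from the 19973 protein-coding genes of the annotation, and each was examined over its gene body and 10000 bp on either side. The data are peak lists from chromatin immunoprecipitation of eGFP-tagged SEM-4, a transcription factor of the Spalt family, in whole L2 larvae. The single group holds 2 samples, labelled as biological replicates 1 and 2. The larvae, males and hermaphrodites pooled, came from strain OP57. Its genotype is unc-119(ed3) III with wgIs57, the insertion that carries tagged sem-4. Both replicates share that background and that transgene. The labels give no untagged or sem-4 mutant group, no exact age and no note of whether the replicates were grown apart. Whole animals were used, so a summit does not say in which cells the protein lay, and epidermal chromatin cannot be told apart from that of any other tissue. The lists hold no read counts, so the depth behind a peak is unknown.

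Seam cells are a lateral row of epidermal cells that divide like stem cells through larval life, with a daughter that joins the surrounding epidermal syncytium and a daughter that stays seam. Epidermal fate starts in the embryo with the GATA factor ELT-1, and is carried on by ELT-3, another GATA factor, and by the zinc-finger protein LIN-26. The neighbouring genes egl-18 and elt-6 encode GATA factors that hold seam fate downstream of Wnt signalling. RNT-1, a Runx factor, and its partner BRO-1, a CBF-beta homologue, promote seam cell divisions. BLMP-1, the worm relative of mammalian Blimp-1, and the Grainyhead factor GRH-1 act in epidermal and cuticle gene expression.

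The summits that carry the results are shown first, for the genes whose sequence can be printed, so that the letters under each peak can be read beside its values. Each stretch holds 101 bases centred on a pooled summit, on the plus strand of ce11 (WBcel235) and read from the RefSeq copy of that genome, except the last. The last is a whole 45-base intron of lin-26, which holds the pooled summit of highest signal near that gene's start. Capitals mark matches, on either strand, to TTGTCT or TTGTGT, which are sites described for SEM-4, to the GATA-factor letters TGATAA or AGATAA, and to GAGAGA. Matches can overlap, as those to AGATAA and GAGAGA do in the stretch between elt-3 and alg-1.
elt-1 intron, chrIV:9615646-9615746: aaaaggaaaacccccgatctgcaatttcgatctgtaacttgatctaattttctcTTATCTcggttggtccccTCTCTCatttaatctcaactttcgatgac
elt-3 past its 3′ end, chrX:13941371-13941471: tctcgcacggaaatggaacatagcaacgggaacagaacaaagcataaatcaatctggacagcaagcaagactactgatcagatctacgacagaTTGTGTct
elt-3 to alg-1, in the exon of K02B9.6, chrX:13945683-13945783: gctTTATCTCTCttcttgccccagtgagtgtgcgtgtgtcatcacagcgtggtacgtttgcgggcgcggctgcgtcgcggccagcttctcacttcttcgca
elt-3 intron, chrX:13937980-13938080: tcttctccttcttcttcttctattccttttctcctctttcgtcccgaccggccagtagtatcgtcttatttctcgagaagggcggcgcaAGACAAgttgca
egl-18 intron, chrIV:1911379-1911479: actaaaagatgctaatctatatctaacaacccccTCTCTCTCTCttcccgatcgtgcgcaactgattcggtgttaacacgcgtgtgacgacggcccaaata
lin-26 intron, chrII:7682544-7682588: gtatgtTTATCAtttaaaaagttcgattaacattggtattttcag

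SEM-4 summits of the reproducible list lay around elt-1, elt-3, blmp-1 and grh-1, and none lay around egl-18, elt-6, rnt-1, bro-1 or lin-26. The reproducible list holds the 2490 peaks kept by the authors' irreproducible discovery rate threshold, and these were the 2490 peaks of highest signal among the 30000 of the pooled relaxed list. The lowest signal in it was 40.3, where signal is the authors' peak score and is used here only within a list. The 4 genes with such a summit in their windows stood beside 37.6% of all protein-coding genes, so the count was near the background. The windows held 7 distinct reproducible summits. By window, 1 lay around elt-1, 2 around elt-3, 3 around blmp-1 and 1 around grh-1, whichever gene's start was nearest. Without replicate 1, in the top 2490 peaks of replicate 2, 7 of the 9 windows held a summit, with egl-18, elt-6 and rnt-1 added. The same summit, at 1911428 in an egl-18 intron (rank 2024), added both egl-18 and elt-6. Without replicate 2, in the top 2490 peaks of replicate 1, 5 did, with lin-26 added. The 37.6% is the share for the reproducible list, and no share over all genes is given for the single-replicate lists.

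**Figure D1:**
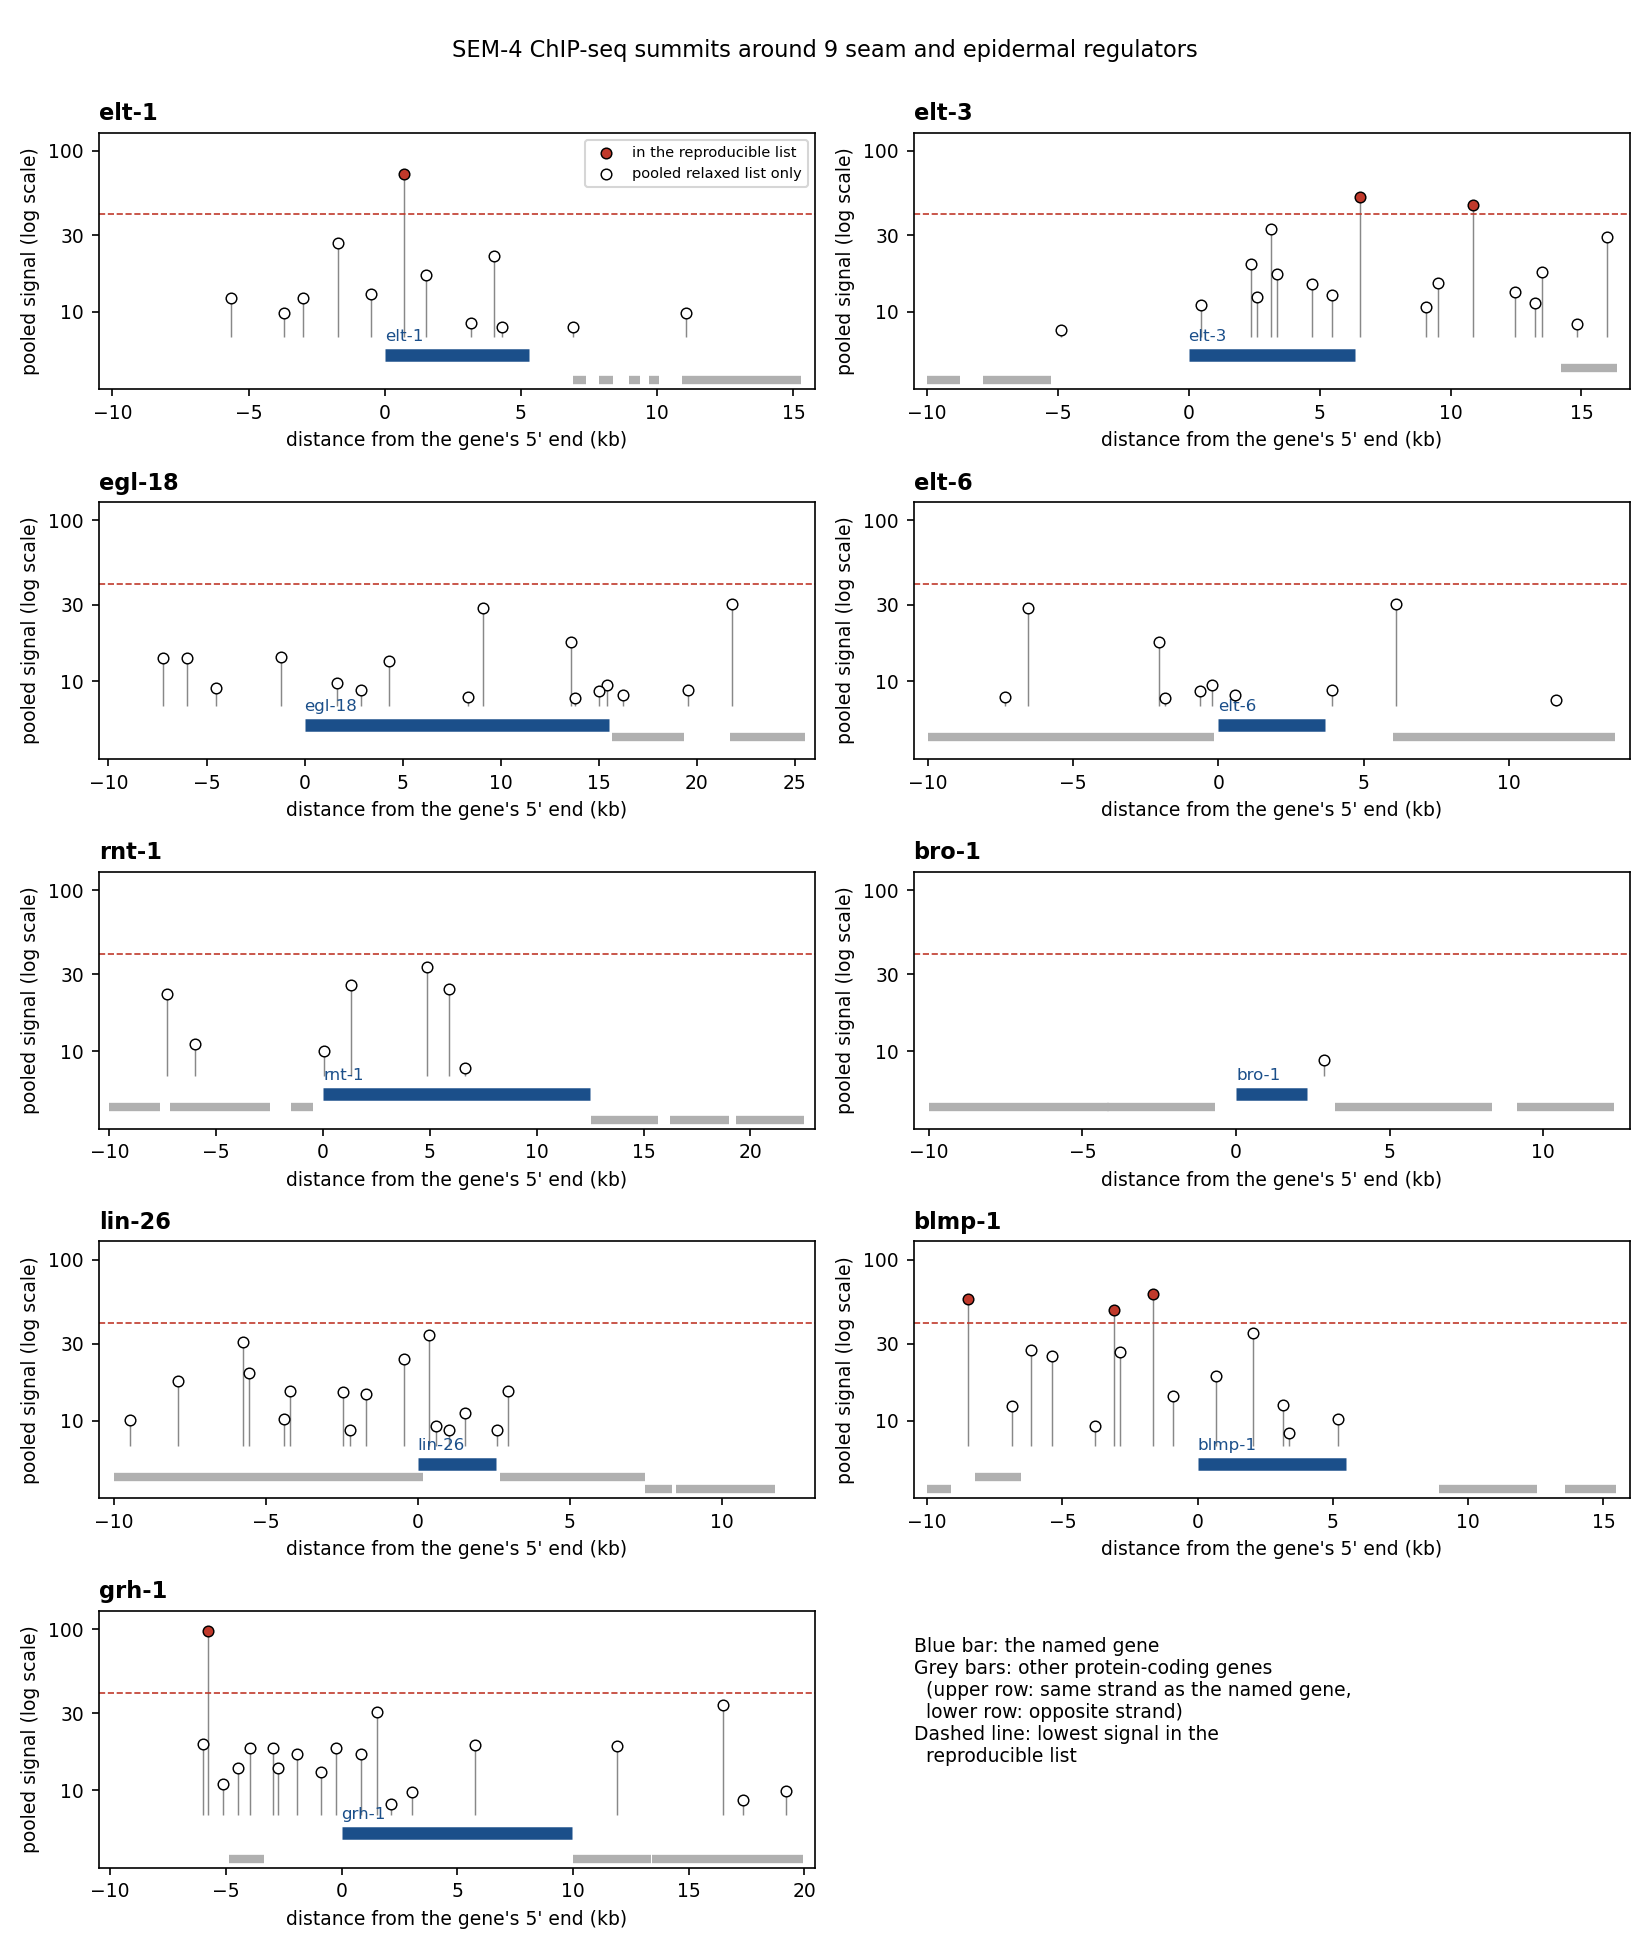
Pooled summits around each of the 9 genes, with distance from the gene's 5′ end in kb on the horizontal axis and the authors' pooled signal on a log vertical axis. Filled red circles are in the reproducible list, open circles are in the pooled relaxed list only, and the dashed line is the lowest reproducible signal, 40.3. The 7 filled circles lie at elt-1, elt-3, blmp-1 and grh-1, while bro-1 has 1 open circle in all.

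Few of these summits lay in a gene body. A reproducible summit lay in the body of 1 of the 9 genes, elt-1, beside 2.77% of all protein-coding genes. The gene bodies were long, with a median of 5472 bp against 2027 bp for all protein-coding genes, and 5.49% of the 8656 genes of at least 2315 bp, the length of the shortest of the 9, held one. The start of 3 of the 9 genes (elt-1, elt-3 and blmp-1) was the nearest protein-coding start to a reproducible summit, beside 10.2% of all protein-coding genes. These 3 genes accounted for 4 of the 7 summits. Without replicate 1 that count was 5 genes, with egl-18 and rnt-1 added. A promoter window, reaching 1000 bp before and 200 bp past each annotated start, held a reproducible summit for elt-1 alone, beside 8.71% of all protein-coding genes. Without replicate 1 the promoter count was 2, with elt-3 added, and without replicate 2 it was also 2, with lin-26 added. The shares of all genes beside these counts are those of the reproducible list, not of the single-replicate lists.

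The lower-ranked summits were more frequent around these genes. All 9 windows held at least 1 pooled relaxed summit, as did those of 85.8% of all protein-coding genes. The gene body held one in 8 of the 9 genes, all but bro-1, beside 33.3% of all genes and 53.3% of those at least 2315 bp long. The promoter window held one in 7 of the 9 genes, all but egl-18 and bro-1, beside 38.4% of all genes. Among the 7675 genes with such a promoter summit 22.7% had a reproducible one, and 1 of the 7 here did. A gene with more annotated starts has more promoter sequence. The 9 genes have from 1 start (as blmp-1) to 6 (as elt-1), and neither the 38.4% nor the 8.71% above is matched for this. At an intermediate threshold, the 5000 pooled peaks of highest signal, 8 of the 9 windows held a summit, beside 54.4% of all genes. The median number of pooled summits per window was 14 for the 9 genes and 6 for all genes, and per 10 kb of window it was 4.75 and 2.37.

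**Figure D2:**
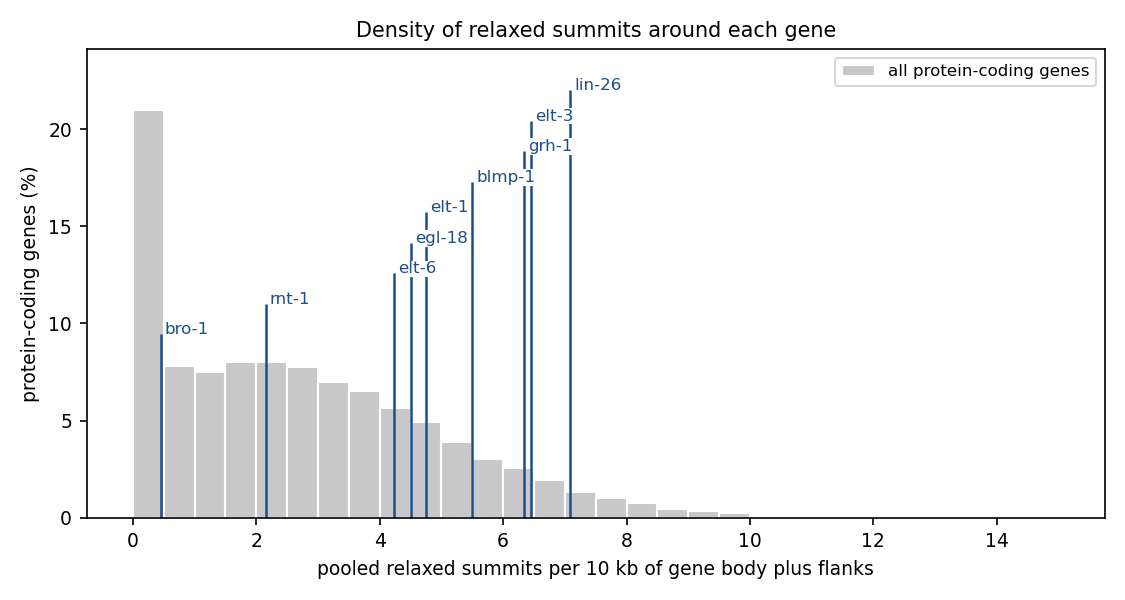
Pooled relaxed summits per 10 kb of gene body and flanks on the horizontal axis. Grey bars give the percentage of all protein-coding genes in each bin, and each blue line marks 1 of the 9 genes, its height carrying no value. lin-26 lies farthest right at 7.09 and bro-1 farthest left at 0.448 summits per 10 kb.

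elt-1, the GATA gene that starts the epidermal programme, had the only reproducible summit inside one of these genes. The gene lies on chromosome IV from 9614995 to 9620280 on the plus strand and has 6 annotated starts. The summit at 9615696 had a pooled signal of 72.3 and ranked 758 of 30000. It ranked 721 in replicate 1, with a signal of 46.2, and 1089 in replicate 2, with a signal of 27.2, and the replicate summits lay 12 and 16 bp to either side. It therefore stood high in both replicates. Its place is 701 bp inside the gene's 5′ end and 294 bp upstream of an internal start, in an intron of 629 to 632 bp that is intron 2 of 7 in the transcripts that start at 9614995 and 9615015, and intron 1 of 6 in the transcript that starts at 9615161. As the elt-1 line above shows, the AGATAA match on the minus strand starts 4 bp from the summit.

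The other elt-1 summits were lower. Of 12 pooled summits in its window, 5 lay in the gene body and 10 had an elt-1 start as the nearest protein-coding start. The next in signal were at 9613263, 1732 bp upstream of the 5′ end (26.8, rank 4989), and at 9619020 in the last intron, 318 bp upstream of another internal start (22.1, rank 6677). The upstream one ranked 8033 in replicate 1 and 4724 in replicate 2, and the intronic one 5153 and 19189. Both thus fell outside the top 2490 peaks of each replicate. A count of 12 or more pooled summits was reached by 17.0% of all protein-coding genes. The 3 genes whose best promoter summit was most like that of elt-1 in its pair of replicate ranks, among 1730 candidates, were arp-11 (signal 71.8, ranks 704 and 1081), T23G11.11 (74.2, ranks 716 and 1060) and rpac-19 (83.6, ranks 724 and 1032).

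elt-3, the GATA gene of the differentiating epidermis, had reproducible summits downstream of the gene and none in its body. It lies on chromosome X from 13934874 to 13941216 on the plus strand. The summit at 13941421 lies 205 bp past its annotated 3′ end, in intergenic sequence, with an internal elt-3 start as the nearest start 1695 bp away. Its signal was 51.7 (rank 1549), and it ranked 1636 in replicate 1 and 2459 in replicate 2, inside the top 2490 of both. The second, at 13945733, had a signal of 46.4 (rank 1922) and lies in the exon of the non-coding gene K02B9.6, 3377 bp upstream of alg-1, which encodes an Argonaute of the microRNA pathway. The replicates placed it apart, at rank 5170 in replicate 1 and 918 in replicate 2.

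The elt-3 body itself held 7 of the 17 pooled summits of the window. The highest of these, at 13938030, lies in a 3622-bp intron, 713 bp upstream of an internal start, with a signal of 32.5 (rank 3625) and a −log10 q of 2.82. It was ranked 7104 in replicate 1 and 1557 in replicate 2. That summit is thus among the top 2490 of replicate 2 and far from them in replicate 1. A summit at 13950850 in the 5′ UTR of alg-1 had a signal of 29.4 (rank 4297). A window count of 17 or more was reached by 4.97% of all protein-coding genes.

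egl-18 and elt-6, the paired GATA genes of seam fate, lie in tandem on chromosome IV with overlapping windows, so their counts are not separate. egl-18 runs from 1902322 to 1917840 and elt-6 from 1917977 to 1921643, both on the plus strand. No reproducible summit lay in either window, and the nearest, of signal 49.8 and closest to the start of egl-4, was 44181 bp from an egl-18 start. The highest pooled signal, 30.2 (rank 4097) at 1924110, lay in an intron of the neighbouring gene denn-4, 102 bp downstream of the nearest of its annotated starts, with ranks of 4069 in replicate 1 and 6713 in replicate 2. The second, 28.8 (rank 4452) at 1911429, lay in intron 1 of egl-18, which is 11092 bp long, 2017 bp upstream of an internal start. It had no overlapping peak among the 30000 of replicate 1, and it ranked 2024 in replicate 2. For elt-6 the highest summit assigned to its own start was 17.5 (rank 9591) at 1915929, 2048 bp upstream and inside the last intron of egl-18. It ranked 7107 in replicate 1 and 17836 in replicate 2. A promoter summit of elt-6 at 1917747, 230 bp upstream of its start, had a signal of 9.45 (rank 23341). Its overlapping peak in replicate 1 ranked 10391, with its summit at 1917741. The overlapping peak in replicate 2 ranked 10446, but its summit is at 1917419. That replicate 2 peak also matched the pooled summit at 1917326 and lies closer to it. The near-equal ranks therefore do not place both replicates at the same summit. The egl-18 window held 16 pooled summits, a count reached by 6.44% of all genes, and the elt-6 window held 10, reached by 25.9%.

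rnt-1, the Runx gene, held its highest summits in one long intron. It lies on chromosome I from 5776093 to 5788611 on the plus strand. Pooled summits at 5780977 (33.3, rank 3484), 5777409 (25.6, rank 5342) and 5781983 (24.1, rank 5863) all lay in intron 3 of 10, which is 7206 bp long. The first ranked 4527 in replicate 1 and 2390 in replicate 2, so it was among the top 2490 of replicate 2 alone. The second ranked 5144 and 10333 in replicates 1 and 2, and the third 5583 and 22067. At the promoter, 16 bp inside a start, a summit had a signal of 10.01 (rank 21663) and a peak in replicate 1 only. The nearest reproducible summit, of signal 70.9, lay 23661 bp away and closest to the start of vps-51. A window count of 7 or more was reached by 43.3% of all genes.

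bro-1, the CBF-beta partner of RNT-1, had the fewest summits of the 9 genes. It lies on chromosome I from 5186926 to 5189240 on the plus strand. Its window held 1 pooled summit, at 5189800, with a signal of 8.83 (rank 25396), 338 bp upstream of fncm-1. That summit ranked 24758 in replicate 1 and had no peak in replicate 2. The list of replicate 1 held 2 summits in the window, and that of replicate 2 held 5. The highest of replicate 2, at 5185866, lay 1060 bp upstream of the bro-1 start and ranked 8853. Another of replicate 2, at 5187526, lay in the bro-1 body, 600 bp inside the start, and ranked 13569. No pooled summit had the bro-1 start as its nearest. At most 1 pooled summit was found in the windows of 21.0% of all protein-coding genes, and the nearest reproducible summit to bro-1 lay 46510 bp away. The Runx gene and its partner gene thus both lacked a reproducible summit, and their windows of 32519 bp and 22315 bp held 7 and 1 relaxed ones.

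lin-26, the zinc-finger gene that keeps epidermal fate, had many summits and none in the reproducible list. It lies on chromosome II from 7682198 to 7684764 on the plus strand, and the nearest reproducible summit, of signal 44.0 and closest to lir-2, was 12581 bp away. Its own highest summit, at 7682580, had a signal of 33.8 (rank 3394) and lay 105 bp inside a start, in a 45-bp intron that is far shorter than the median peak width of 350 bp. Replicate 1 ranked it 2055, and replicate 2, whose overlapping peak has its summit 167 bp away, ranked it 12830. The other high summits of the window were assigned to the neighbour lir-1, at 7676434 in its 8942-bp intron (30.9, rank 3946) and at 7681756 in a coding exon (24.0, rank 5905). The first ranked 3365 in replicate 1 and 3461 in replicate 2, and the second 3517 and 8505. Of the 16 pooled summits in the window, a lin-26 start was the nearest for 3. The density of 7.09 pooled summits per 10 kb was the highest of the 9 genes.

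blmp-1 had more reproducible summits in its window than any other of the 9 genes. It lies on chromosome I from 10409302 to 10414773 on the plus strand, with 1 annotated start. The summit at 10407662, 1640 bp upstream of that start, had a signal of 61.1 (rank 1104) and ranked 1102 in replicate 1 and 2155 in replicate 2. Another at 10406218, 3084 bp upstream, had a signal of 49.0 (rank 1735), ranked 1160 in replicate 1 and 9249 in replicate 2, and lay in an exon of the non-coding gene F25D7.8. The remaining one, at 10400800 (57.2, rank 1272), lay in an exon of the non-coding gene F25D7.11 and 264 bp upstream of the neighbour tag-353, 8502 bp from the blmp-1 start. It ranked 1513 in replicate 1 and 2586 in replicate 2. All 3 therefore lay upstream, 2 of them with blmp-1 as the nearest protein-coding gene, and the first was the only one in the top 2490 of both replicates. If starts of genes without a protein are counted, neither of those 2 is assigned to blmp-1, since F25D7.6 and F25D7.8 start nearer. A count of 3 or more reproducible summits in the window was reached by 4.64% of all protein-coding genes.

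The blmp-1 body held 5 of the 14 pooled summits. The highest, at 10411358 in an intron 2056 bp inside the gene, had a signal of 35.3 (rank 3174) and a −log10 q of 2.96, with rank 3253 in replicate 1 and 7100 in replicate 2. It was the closest summit to the reproducible threshold that missed it among the 103 pooled summits of the 9 windows, and the lowest that passed was the elt-3 to alg-1 summit at 46.4. The promoter window of blmp-1 held only a summit of 14.2 (rank 13274), 928 bp upstream.

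grh-1, the Grainyhead gene, had the highest signal of the 9 windows, but far upstream of the gene. It lies on chromosome I from 1258201 to 1268155 on the minus strand. The summit at 1273938 had a signal of 98.0 (rank 396) and ranked 432 in replicate 1 and 506 in replicate 2. It lies 5783 bp upstream of the grh-1 5′ end in intergenic sequence, and the nearest start, 2422 bp away, is that of Y48G8AR.8. Within the gene the highest summit was at 1266637 in the 1147-bp first intron (30.5, rank 4038), with ranks of 7147 in replicate 1 and 7808 in replicate 2. Another, 226 bp upstream of a start, had a signal of 18.4 and a peak in replicate 1 only, at rank 6063. A summit at 1251663 in an intron of herc-1 had a signal of 33.8 (rank 3403). The window held 19 pooled summits, more than any other of the 9, and 2.92% of all protein-coding genes had as many or more.

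**Figure D3:**
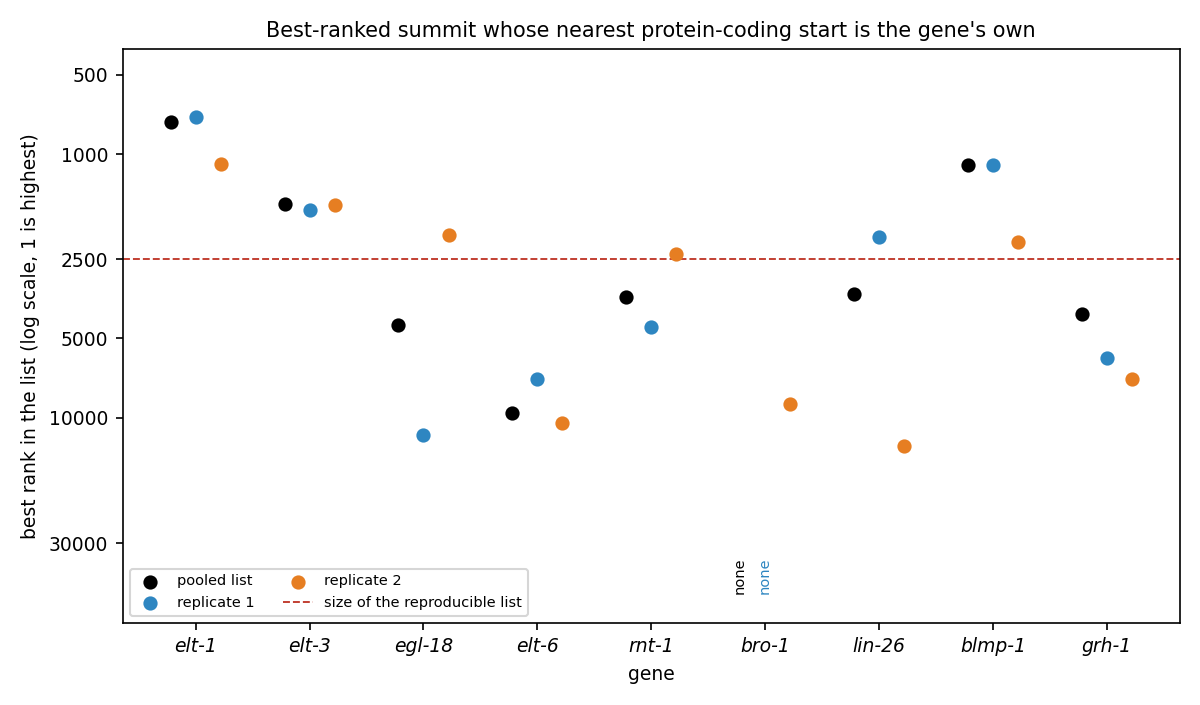
Rank of the highest summit whose nearest protein-coding start is the gene's own, on a log vertical axis with rank 1 at the top, for each of the 9 genes. Black points are the pooled list, blue replicate 1 and orange replicate 2, and the dashed line is the size of the reproducible list, 2490. elt-1, elt-3 and blmp-1 lie above the line in all 3 lists, egl-18 and rnt-1 in replicate 2 alone, and lin-26 in replicate 1 alone.

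Ordered by the best summit assigned to their own starts, the genes ran elt-1 (72.3), blmp-1 (61.1), elt-3 (51.7), lin-26 (33.8), rnt-1 (33.3), grh-1 (30.5), egl-18 (28.8) and elt-6 (17.5), with none for bro-1. The pooled list gives 1 value per summit and no spread, so the replicate ranks are the only check on that order. In each replicate's list, the best-ranked summit assigned to a gene's own start can be another one than in the pooled list. By that measure elt-1 ranked best in both replicates, at 721 in replicate 1 and 1089 in replicate 2. The blmp-1 summit and the elt-3 summit past its 3′ end kept their order, at 1102 and 1636 in replicate 1 and at 2155 and 2459 in replicate 2, although elt-3 ranked 1557 in replicate 2 by its intronic summit. Replicate 1 also kept the pooled order of lin-26 (2055), rnt-1 (4527), grh-1 (5928) and egl-18 (11660), but it placed elt-6 (7107) ahead of egl-18. Replicate 2 did not keep the pooled order. It had egl-18 at 2024, ahead of blmp-1, then rnt-1 at 2390, grh-1 at 7134 and lin-26 at 12830, the last of the 9.

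The replicates' own lists held 4 of the 7 reproducible summits (57.1%) among the top 2490 of each, against 1495 of all 2490 reproducible summits (60.0%). The 4 were those at elt-1, at the elt-3 3′ end, 1640 bp upstream of blmp-1 and upstream of grh-1. Of the 103 pooled summits in the windows, 62 overlapped a peak in both replicates (60.2%), 22 in replicate 1 only, 15 in replicate 2 only and 4 in neither. Over all 30000 pooled summits 52.1% overlapped a peak in both. Across those 62 summits Spearman's rho between the replicates' ranks was 0.30. These points share windows, and neighbouring pooled summits can match the same replicate peak, so rho is given as a description.

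**Figure D4:**
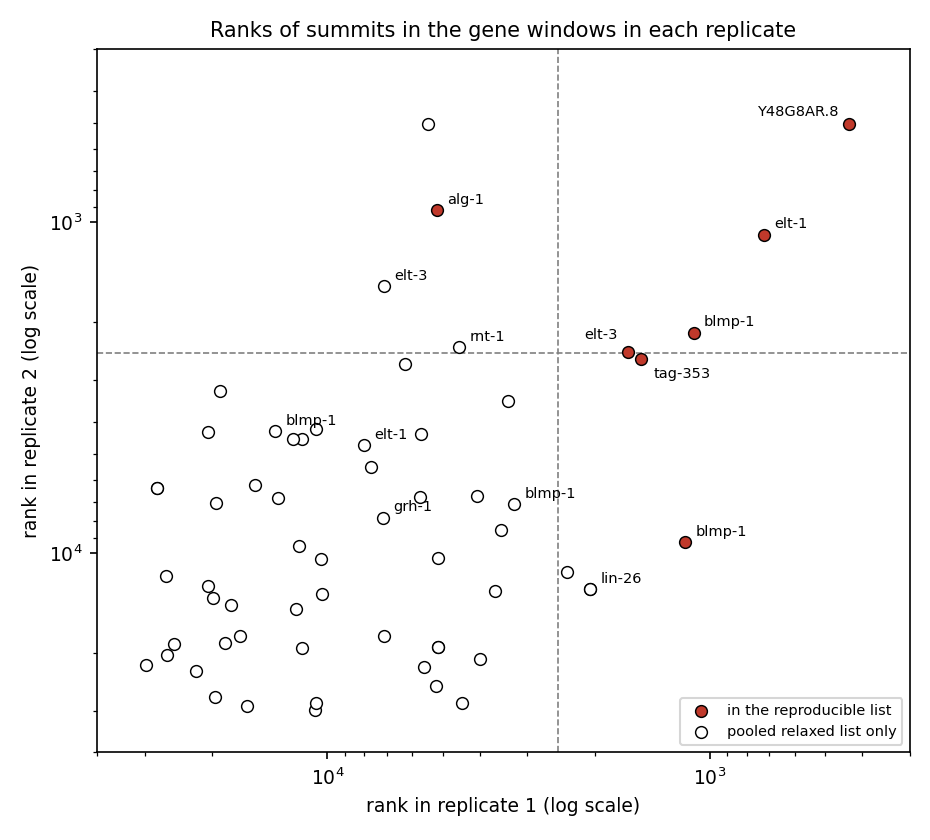
Rank in replicate 1 (horizontal, log scale) against rank in replicate 2 (vertical, log scale) for the 62 pooled summits of the 9 windows with a peak in both replicates, with the best ranks at top right. Filled points are in the reproducible list, names are those of the gene with the nearest protein-coding start, and dashed lines mark rank 2490. Of the filled points, 4 lie in the top right corner. Open points past the line in replicate 2 only are those of elt-3, rnt-1 and an unnamed one beside the grh-1 summit that shares its replicate 2 peak, and in replicate 1 only those at lin-26 and an unnamed one nearest to tag-353.

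The 8 merged windows, 223779 bp in all, held 0.313 reproducible summits per 10 kb, against 0.248 for the whole genome. For pooled relaxed summits the density was 4.60 in the windows and 2.99 in the genome. The median signal of the 7 reproducible summits was 57.2, against 57.7 for the whole reproducible list. The windows thus held more relaxed peaks per length than the genome, and reproducible peaks of ordinary strength. By position, 49 of the 103 pooled summits lay in introns (47.6%), against 34.8% of all pooled summits, and 34 were intergenic (33.0%), against 43.2%. Of the 7 reproducible summits 3 lay in exons of non-coding genes (42.9%), against 10.1% of all reproducible summits. A further 3 were intergenic (42.9%), against 63.7%, and 1 was intronic (14.3%), against 20.8%. With 7 summits, 1 more or less moves these shares by 14.3 percentage points.

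The letters under the summits were compared with those under all summits of the same 101-bp length. TGATAA was found under 0 of the 7 reproducible summits in the windows (exact 95% binomial interval 0 to 41.0%), against 4.26% of all 2490 reproducible summits and 8.39% of the other 27510 pooled summits. Under the 96 lower pooled summits of the windows 11 held it (11.5%), among them the lin-26 summit shown above. With AGATAA counted too, 2 of the 7 held a match, against 8.88% of all reproducible summits and 14.3% of the other pooled ones. Those 2 are the elt-1 intron and the summit between elt-3 and alg-1. TTGTCT or TTGTGT lay under 2 of the 7 (28.6%, interval 3.67 to 71.0%), the elt-3 3′ end and the grh-1 summit, against 18.6% of all reproducible and 14.1% of the other pooled summits. The absence of TGATAA held for the 101-bp stretch and not for a wider one. Within 201 bp it lay under 2 of the 7 (28.6%), against 9.32% of all reproducible and 16.7% of the other pooled summits. The intervals cover counting alone, and at 7 summits they span all of these background shares.

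GAGAGA was the commonest of these words under the reproducible summits of the windows. It lay under 6 of the 7 (85.7%), all but the elt-3 3′ end. It also lay under 30.8% of all reproducible summits, 10.6% of the other pooled summits and 20.8% of the 96 lower pooled summits in the windows. It was counted because it was seen in the printed sequences, some of them from these 7 summits. The share is therefore a description and carries no interval and no test. Runs of it were also found under relaxed summits, with 11 overlapping matches in the rnt-1 intron at 5780977 and 3 in the egl-18 intron shown above. The median GC content of the 7 stretches was 46.5%, equal to that of all reproducible summits and above the 35.6% of the other pooled summits.

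Genes with related roles were counted by the same promoter rule. Of 13 other seam cell regulators, 3 had a reproducible promoter summit and 12 a relaxed one: wrm-1 (77.9) and lit-1 (53.0), of the Wnt asymmetry pathway, and ceh-20 (71.0), a Pbx homeobox gene. Of 12 other epidermal regulators, the posterior Hox gene nob-1 (41.1) alone had a reproducible one, and 5 had a relaxed one. Of 18 epidermal and seam effectors, 2 had a reproducible one, hmp-1 (57.2), the alpha-catenin, and ajm-1 (47.0), a junction protein, and all 18 a relaxed one. Of 9 other genes with GATA-type zinc fingers, egl-27 (54.8) and lin-40 (40.7), which encode chromatin factors, had a reproducible promoter summit. A relaxed one was found for 3 of those 9. Beside these, elt-1 was the 1 of the 9 seam and epidermal regulators with a reproducible promoter summit. The reproducible counts are read against the 8.71% of all protein-coding genes given above, and the relaxed counts against 38.4%.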

How the data were processed

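The deposited signal value (column 7), the deposited −log10 q-value (column 9) and the deposited summit offset (column 10) of each narrowPeak list on ce11 were used as the authors gave them. The authors called relaxed peaks against a control, for each replicate and for both pooled, and thresholded them by irreproducible discovery rate into the reproducible list, per the text files deposited beside the lists. The aligner, peak caller, threshold and versions are not given in the sources used here, and lists on ce10 were not used. The scale of signal is set by each list. Summits were placed on gene models of Ensembl release 115 (WBcel235), 1-based. A pooled peak was matched to a replicate peak by at least 1 bp of overlap, taking the nearest summit. The windows of egl-18 and elt-6 were merged for densities, giving 8 regions. Feature classes had the order coding exon, 5′ UTR, 3′ UTR, non-coding exon, intron, intergenic. Motif matches on either strand were counted within 101 bp, with exact binomial intervals at 95% for TGATAA and for TTGTCT or TTGTGT.

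The genes and lists were chosen with earlier results of these data known. Named summits are all reproducible ones of a window and otherwise the 3 of highest pooled signal. Other summits named, AGATAA and GAGAGA were chosen after values or sequences were seen. Context genes are up to 4 per list with the strongest reproducible promoter summit. With 1 group and no control list, no test was made. Counting was tested on simulated data with planted summits and motifs. Alternatives were other flanks, list sizes, promoter windows, start sets, overlap rules, motif windows and single replicates. Computation used Python 3.11.15, numpy 2.4.6, pandas 2.3.3, scipy 1.17.1 and matplotlib 3.10.9.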

Additional observations from a re-analysis of the deposited data

How the results depend on the processing

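The lists carry no read counts, so depth sets no error on any count, and 7 summits in 9 windows allow coarse statements only. No paired analysis was possible because there is 1 group. The 4 genes with a reproducible summit in their windows became 1 with gene bodies alone, 8 with the 5000 pooled peaks of highest signal, and 5 to 7 with single replicates. The 7 distinct summits became 3 with 2000-bp flanks, 1 with gene bodies alone, 3 in the 1245 peaks of highest signal, 20 with 5000 peaks, and 8 to 9 with single replicates. The 3 genes nearest to such a summit became 1 with gene bodies alone, 7 with 5000 peaks, and 4 to 5 with single replicates. Their 4 summits became 1 with gene bodies alone, 2 in the 1245 peaks, 12 with 5000 peaks, 2 when starts of all genes were used, and 5 to 6 with single replicates. The 1 promoter gene became 3 with 5000 peaks, 2 with a window from 2000 bp upstream to 500 bp downstream, and 2 with either replicate alone. The density of 0.313 per 10 kb became 0.157 with gene bodies alone, 0.134 in the 1245 peaks, 0.894 with 5000 peaks, and 0.357 to 0.402 with single replicates. The share with TTGTCT or TTGTGT became 0 within 25 bp of the summit. The other settings run moved no count or share beyond 1.5 times or its interval. TGATAA with or without AGATAA, an alternative chosen after seeing the data, stayed within the interval of its share. A longer list or flank holds more summits by construction.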
